A study of Mus musculus with 2 samples.

Results

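Noradrenaline and adrenaline that chromaffin cells release or leak from their granules are removed by uptake and broken down by oxidation. The 8 genes described here carry those steps: the transporters Slc6a2, Slc6a3, Slc22a2, Slc22a3 and Slc29a4, the oxidases Maoa and Maob, and the aldehyde dehydrogenase Aldh2. They were chosen by function and looked up by symbol, and all 8 were found among the 43346 mouse genes of the deposited tables. The adrenal glands came from C57BL/6J mice at 8 weeks of age, described in the labels as littermates of both sexes. Poly(A) RNA of the whole gland was sequenced in 2 libraries, biological replicates 1 and 2 of 1 group, with no genetic change or treatment listed. The labels give each library its own biosample but the same donor entry, and do not say whether separate animals or pools were used. The spread between the libraries may therefore be partly technical. The RNA itself differed in sex-linked genes: all 4 Y-linked genes examined had counts in replicate 1 and 0 in replicate 2. The libraries thus did not hold the same mix of sexes. With 1 group there is no comparison between conditions: the data give each gene's level and how far the replicates lay apart.

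As background, the plasma membrane transporters Slc6a2 (noradrenaline) and Slc6a3 (dopamine) take up catecholamines with sodium and high affinity, mainly at nerve endings. The organic cation transporters Slc22a2 (OCT2) and Slc22a3 (OCT3) and the monoamine transporter Slc29a4 (PMAT) work with lower affinity and high capacity in many other cells. Inside the cell, monoamine oxidases A and B of the outer mitochondrial membrane turn the amines into reactive aldehydes. Aldh2 in the mitochondrial matrix and its relatives oxidise such aldehydes to acids, and aldehyde reductases turn them into alcohols.

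The oxidases carry their FAD cofactor on a cysteine within a short stretch that both share, which is why it is shown. The lines give coding sequence of GENCODE M21 on GRCm38, 5′ to 3′, around that cysteine codon. Capitals mark the codons for serine, glycine, glycine, cysteine and tyrosine. The Maoa stretch is chrX:16682228-16682272 on the plus strand and the Maob stretch chrX:16716412-16716456 on the minus strand, both in exon 12.
Maoa: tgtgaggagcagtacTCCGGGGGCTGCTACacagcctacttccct
Maob: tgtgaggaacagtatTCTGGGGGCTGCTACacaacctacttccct
The stretches differ at 4 of 45 bases, 1 of them in the capitals. The cysteine is codon 406 of Maoa and codon 397 of Maob. Over the whole coding sequence the pair matched at 71.2% of 1551 aligned bases. Slc6a2 and Slc6a3 matched at 68.8% of 1838 and Slc22a2 and Slc22a3 at 59.3% of 1635 aligned bases.

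Aldh2 is shown at the start of its exon 3, where its annotated transcripts use splice sites that lie 3 bases apart. The transcript Aldh2-201 begins exon 3 with 3 bases, in capitals, that Aldh2-204 lacks. Exon 3 is chr5:121579604-121579744 in Aldh2-201 and chr5:121579604-121579741 in Aldh2-204, on the minus strand.
Aldh2-201: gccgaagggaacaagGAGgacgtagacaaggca
Aldh2-204: gccgaagggaacaaggacgtagacaaggca
The catalytic cysteine of Aldh2 lies in a run of 3 cysteine codons (capitals) in exon 9 of Aldh2-201, at chr5:121572784-121572822 on the minus strand. A search of each annotated coding sequence found this run in Aldh2-201 and Aldh2-202 and did not find it in Aldh2-204.
Aldh2-201: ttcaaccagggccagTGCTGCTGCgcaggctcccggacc

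The levels spanned several orders of magnitude, and Aldh2 was by far the highest. Levels are in TPM, a share of all transcripts in the library after division by transcript length. Detection asked for 1 TPM in each library. By this rule 6 of the 8 genes were detected, against 54.6% of the 21474 protein-coding genes. Aldh2, Slc29a4, Slc22a3, Slc6a2, Maob and Maoa followed each other in this order of mean level, while Slc22a2 and Slc6a3 stayed far below the limit. In this bulk tissue, fewer cells of a type and less RNA per cell cannot be told apart.

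**Figure D1:**
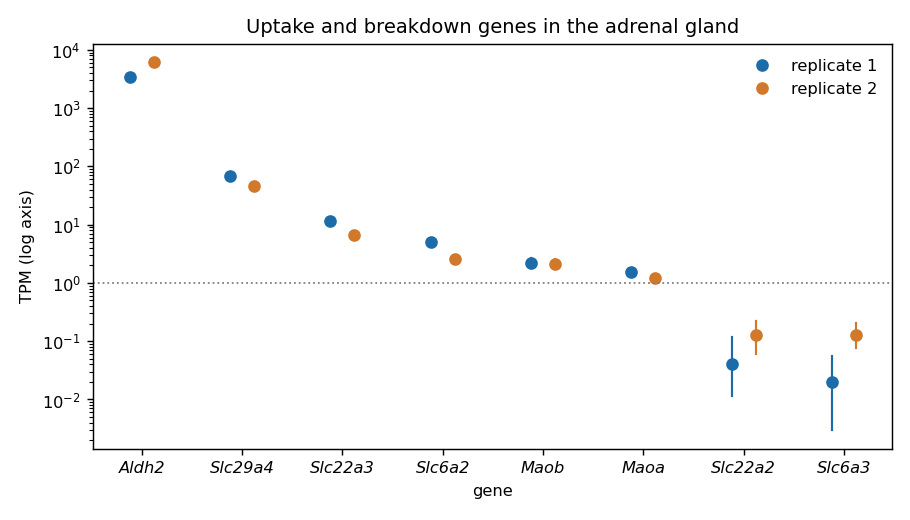
TPM of each gene (log axis) in replicate 1 and replicate 2; vertical lines are the deposited intervals, whose level is not stated and which lie just below the TPM for Aldh2, and the dotted line is 1 TPM. Aldh2 stands at 3477 and 6093 TPM, 5 genes lie between 1.2 and 68.0 TPM, and Slc22a2 and Slc6a3 lie at or below 0.13 TPM.

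Slc6a2, the noradrenaline transporter and a marker of noradrenergic cells (ENSMUSG00000055368.9, mm10 chromosome 8, 92960079 to 93001667, plus strand), had 4.99 TPM in replicate 1 and 2.53 TPM in replicate 2, from 938 and 415 counts. Both values were above the detection limit, and replicate 1 was the higher. The mean was 3.76 ± 1.74 TPM (SD, n = 2). Slc6a3, the dopamine transporter (ENSMUSG00000021609.6, chromosome 13, 73536747 to 73578672, plus strand), had 0.02 TPM in replicate 1 and 0.13 TPM in replicate 2. These values rest on 2 and 16 counts. With a sum of 18 counts it fell short of the minimum of 20 used for ratios, and its deposited intervals were 0.00294 to 0.0561 and 0.0749 to 0.205 TPM.

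Slc29a4 (ENSMUSG00000050822.7, chromosome 5, 142692512 to 142722490, plus strand) was the highest of the uptake transporters, with 68.0 TPM in replicate 1 against 45.8 TPM in replicate 2. The mean was 56.9 ± 15.7 TPM, exceeded by 12.6% of protein-coding genes. Slc22a3 (ENSMUSG00000023828.2, chromosome 17, 12418960 to 12507704, minus strand) had 11.5 TPM (1324 counts) in replicate 1 and 6.63 TPM (817 counts) in replicate 2. Both genes were higher in replicate 1, and the libraries of one did not overlap with those of the other. Slc22a2 (ENSMUSG00000040966.9, chromosome 17, 12584132 to 12628488, plus strand) had 3 counts in replicate 1 and 9 in replicate 2, equal to 0.04 and 0.13 TPM. Slc22a2 is known as the form of the kidney, and of 7 kidney markers none reached 1 TPM in both libraries. The summed level of those markers was 0.60 TPM in replicate 1 and 0.65 TPM in replicate 2, and Kap and Slc12a1 had 0 counts in each. What part kidney RNA had in the Slc22a2 counts was not tested.

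Of the summed TPM of the 5 uptake transporters, Slc29a4 held 80.4% in replicate 1 and 83.0% in replicate 2. Slc22a3 held 13.6% and 12%, and Slc6a2 held 5.90% and 4.58%. The sum was 84.5 TPM in replicate 1 and 55.3 TPM in replicate 2, a larger ratio between the replicates than that of these 3 shares. Slc6a3 and Slc22a2, on few counts, held 0.0237% and 0.0473% in replicate 1 and 0.235% each in replicate 2. Slc29a4 exceeded Slc22a3 5.90-fold in replicate 1 and 6.91-fold in replicate 2. It exceeded Slc6a2 13.6-fold and 18.1-fold.

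Both oxidases were near the detection limit. Maoa, which prefers noradrenaline and serotonin (ENSMUSG00000025037.6, chromosome X, 16619698 to 16687818, plus strand), had 1.52 TPM in replicate 1 and 1.2 TPM in replicate 2, from 210 and 178 counts. Its mean of 1.36 ± 0.226 TPM ranked 11497 among the 11718 detected protein-coding genes. Maob (ENSMUSG00000040147.10, chromosome X, 16709282 to 16817366, minus strand), which prefers phenylethylamine, had 2.21 TPM in replicate 1 and 2.13 TPM in replicate 2, from 170 and 176 counts. The Maob libraries lay closer together than those of any other of the 8 genes, at 2.17 ± 0.0566 TPM.

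Maob was therefore the higher oxidase per transcript length in both libraries. The ratio of Maoa to Maob in TPM was 0.688 in replicate 1 and 0.563 in replicate 2, and the mean log2 ratio was -0.68. In counts, which are not per length, Maoa was the higher in both libraries, with a mean log2 ratio of 0.16, since its transcript is longer at 4167 against 2411 nt. Th, the first enzyme of catecholamine synthesis, exceeded Maoa 323-fold in replicate 1 and 370-fold in replicate 2.

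Aldh2 (ENSMUSG00000029455.10, chromosome 5, 121566027 to 121593824, minus strand) had 3477 TPM in replicate 1 and 6093 TPM in replicate 2, from 110016 and 169527 counts. Its mean of 4785 ± 1850 TPM ranked 13 among detected protein-coding genes. The gene held most of the 118794 counts of all 8 genes in replicate 1 and of the 175570 in replicate 2. Its value per length depends on which transcripts the reads are given to, as described next.

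The deposited split placed most of the Aldh2 level on a short transcript. Aldh2-204, with 656 nt over 5 exons, had 2303 TPM in replicate 1 and 4743 TPM in replicate 2, which was 66.3% and 77.9% of the gene. The annotation marks it as open at its 3′ end, and its exons end before the catalytic codons printed above. Aldh2-202, with 11 exons, had 1035 and 1215 TPM. The full-length Aldh2-201, with 13 exons and 3867 nt, had 114 TPM in replicate 1 and 90.9 TPM in replicate 2. The retained-intron transcript Aldh2-203 had 24.1 and 43.5 TPM.

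The difference between the replicates sat mainly on the short model. Aldh2-204 was 2.06-fold higher in replicate 2, Aldh2-202 was 1.17-fold higher in replicate 2, and Aldh2-201 was 1.26-fold higher in replicate 1. Transcripts whose annotated coding sequence holds the catalytic codons summed to 1149 TPM in replicate 1 and 1306 TPM in replicate 2. This was 33.1% and 21.4% of the gene's TPM, and 65.9% and 50.4% of its counts. Aldh2-203 has no annotated coding sequence and was left out of this sum, although 1 of its exons spans these bases. With all counts placed on the 3867 nt transcript the gene had 861 TPM in replicate 1, against 1240 TPM in replicate 2, a mean of 1051 in place of 4785 TPM, and it remained the highest of the 8 genes.

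**Figure D2:**
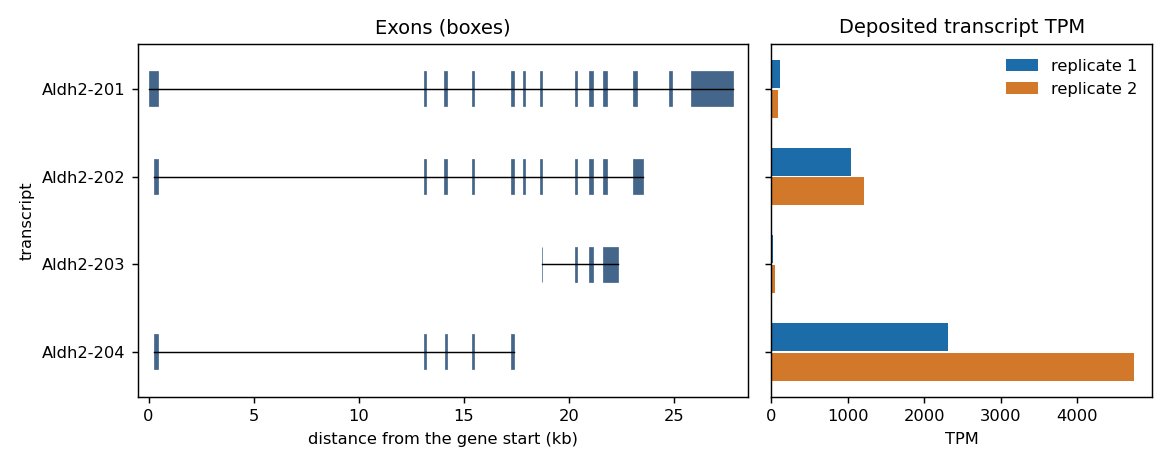
Left, exons of the Aldh2 transcripts as boxes against distance from the gene start in kb; right, deposited TPM of each transcript in replicate 1 and replicate 2. The short Aldh2-204 has 2303 and 4743 TPM, the full-length Aldh2-201 114 and 90.9 TPM.

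Among the other genes, Slc6a2 had 2 and Maob 4 transcripts in the tables, while the remaining 5 had 1 each. For Slc6a2 the split differed between the libraries. Slc6a2-201 held 83.2% of its TPM in replicate 1 and 47.4% in replicate 2. Slc6a2-202 held 16.8% in replicate 1 and 52.6% in replicate 2. In replicate 2 the deposited intervals of the pair overlapped, at 0.966 to 1.45 TPM for Slc6a2-201 and 0.890 to 1.73 TPM for Slc6a2-202. By counts Slc6a2-201 led in both libraries, with 90.4% in replicate 1 and 63.5% in replicate 2. The quantified models of Slc6a2-201 and Slc6a2-202 were 6073 and 3264 nt long, against 6187 and 6007 nt in the later annotation, so both models have changed since. For Maob all counts were given to Maob-201 in both libraries, and the 3 transcripts marked for nonsense-mediated decay were listed at 0.

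Set in order, neighbours were separated by more than their spread except in the middle and at the bottom. A pair was called separate where the libraries did not overlap and the difference of the mean log2 TPM exceeded the sum of both SDs. This held for Aldh2 over Slc29a4, Slc29a4 over Slc22a3, Slc22a3 over Slc6a2, Maob over Maoa and Maoa over Slc22a2. The margin was thin for Slc22a3 over Slc6a2, at 1.298 against 1.257 on the log2 scale. Slc6a2 was above Maob in both libraries in deposited TPM, but the difference of 0.71 did not exceed the summed SD of 0.73. With all counts on the longest transcript, Slc6a2 had 4.59 TPM in replicate 1 and 1.89 TPM in replicate 2. Maob then had 2.21 and 2.13 TPM, so it was the higher in replicate 2. Slc22a2 and Slc6a3 overlapped.

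The replicates were then set against each other, as log2 ratios of scaled counts, replicate 1 over replicate 2. Intervals are exact 95% binomial intervals for counting error. No p-value is given, since 1 library on each side leaves no residual spread. Of the 6 genes with at least 20 summed counts, 1 lay at least 2-fold apart, Slc6a2, beside 7.56% of the 15814 genes that passed this minimum. By direction, Slc6a2 was the 1 gene at least 2-fold higher in replicate 1, beside 4.7% of genes. In replicate 2, 0 of the 6 were at least 2-fold higher, beside 2.86% of genes. The median of all genes was -0.0045.

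Slc6a2 had a log2 ratio of 1.32 (interval 1.16 to 1.49), which is 2.50-fold, and 2.54% of genes had a higher ratio. The SD of the ratio over the 3804 genes with similar counts, within 2-fold, was 0.45. In TPM the gap was 1.97-fold, short of the limit, a log2 ratio of 0.98. The mean transcript length deposited for the gene was 5600 nt in replicate 1 and 4602 nt in replicate 2. With all counts on the longest transcript the log2 ratio in TPM was 1.28. Scaled to spike-in RNA, which moved the median of all genes to -0.43, its ratio was 0.89.

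The uptake transporters Slc22a3 and Slc29a4 were also higher in replicate 1, within 2-fold. Slc22a3 had a log2 ratio of 0.84 (0.72 to 0.97), beside an SD of 0.41 over genes of similar counts. Slc29a4 had 0.62 (0.56 to 0.67), beside an SD of 0.33. With spike-in scaling these became 0.41 and 0.19.

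The log2 ratios of the oxidases were smaller than 1 SD of the ratios of genes with similar counts. The median absolute ratio of such genes was 0.30 for Maoa, which exceeded it, and 0.31 for Maob, which stayed below it. Maoa had a log2 ratio of 0.39 (0.09 to 0.68) beside an SD of 0.63, and its sign turned with spike-in scaling, at -0.044. Maob had 0.097 (-0.22 to 0.41), an interval that includes 0, and -0.33 with spike-in scaling. Both genes are X-linked, and the libraries differed in sex-linked RNA. Xist had 3401 counts in replicate 1 and 8376 in replicate 2, and all 4 Y-linked genes had counts in replicate 1 and 0 in replicate 2. Differences between the replicates cannot be told apart from a difference in sex composition. Aldh2 was the single gene of the 6 that was lower in replicate 1, at -0.48 (-0.49 to -0.47). The SD over the 52 genes with similar counts was 0.49. With spike-in scaling the Aldh2 ratio became -0.91. In TPM it was -0.81 as deposited and -0.53 with all counts on the longest transcript.

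**Figure D3:**
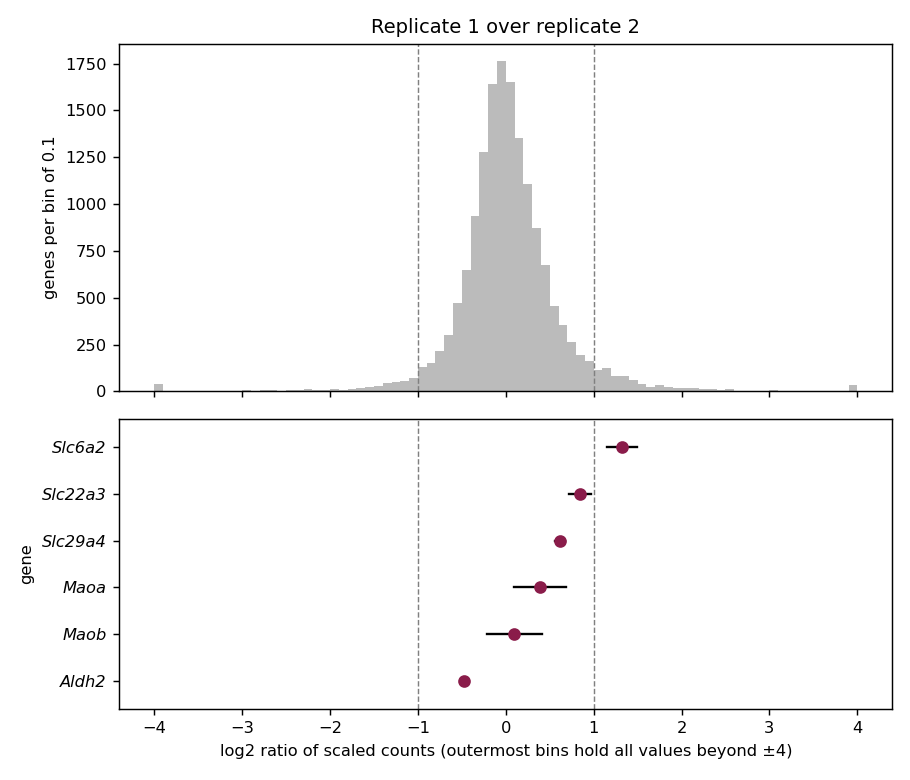
Top, number of genes by log2 ratio of scaled counts, replicate 1 over replicate 2, for 15814 genes; bottom, the 6 genes with at least 20 summed counts, points with exact 95% intervals for counting error. Dashed lines mark 2-fold; Slc6a2 at 1.32 lies beyond it and the other 5 lie inside.

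Slc6a2 is expressed by chromaffin cells and by sympathetic neurons, so both marker lists are given beside it. All 6 neuronal markers had a positive log2 ratio and 5 of them exceeded 2-fold, with a median of 2.07. Their summed level was 49.0 TPM in replicate 1 and 17.2 TPM in replicate 2. Tubb3 (neuronal tubulin) had 21.2 and 3.79 TPM, and Prph (peripherin, an intermediate filament protein of neurons) had 8.30 and 1.70 TPM. Of 7 chromaffin markers 1 exceeded 2-fold, Chgb, and the median was 0.040. Their summed level was 3923 TPM in replicate 1 and 3622 TPM in replicate 2. The ratio of Slc6a2 was 1.32, and the part of either cell type in it was not tested. Dbh exceeded Slc6a2 61.7-fold in replicate 1 and 126-fold in replicate 2.

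**Figure D4:**
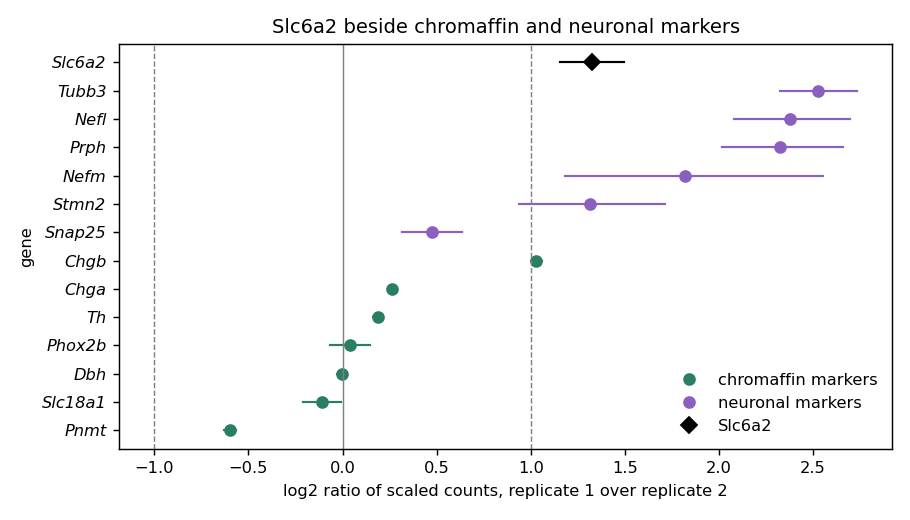
Log2 ratio of scaled counts, replicate 1 over replicate 2, with exact 95% intervals for counting error, for Slc6a2 and for chromaffin and neuronal markers. Slc6a2 at 1.32 lies above all 7 chromaffin markers and below 4 of the 6 neuronal markers.

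Markers of other cells also differed between the libraries. The 6 adipose markers summed to 12270 TPM in replicate 1 and 5274 TPM in replicate 2, with 5 of 6 higher in replicate 1. The 6 cortex markers summed to 23850 TPM in replicate 1 and 31560 TPM in replicate 2, each with a negative log2 ratio, and a median of -0.32. Of all 15814 genes tested, 7987 had a negative ratio. Lists for endothelium (816 and 712 TPM), macrophages (469 and 440 TPM), smooth muscle (87.6 and 108 TPM), mast cells (13.8 and 21.8 TPM), Schwann cells and glia (17.1 and 10.5 TPM) and liver (45.4 and 51.4 TPM) had medians of 0.17, 0.035, 0.030, -0.26, 0.64 and -2.30. Of the 6 liver markers 5 were at least 2-fold higher in replicate 2, among them Alb (albumin) with 22 counts in replicate 1 and 441 in replicate 2. Cyp2e1, which made up most of the liver sum in replicate 1, had 39.2 TPM there and 16.2 TPM in replicate 2. Their part in the values of Slc22a3, Slc29a4 and Aldh2 was not tested. All members of the chromaffin and cortex lists, which mark the labelled tissue, were detected, as were all of the adipose, endothelial, macrophage and Schwann and glial lists.

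The other genes of uptake and breakdown showed more abundant relatives of several of the 8 genes. Of 6 further monoamine and cation transporters 5 were detected. The serotonin transporter Slc6a4 had 16.0 TPM in replicate 1 and 18.2 TPM in replicate 2, above Slc6a2 in both. The vesicular monoamine transporter Slc18a1 had 14.2 and 15.7 TPM. Its relative Slc18a2 had 8.33 and 4.02 TPM, a log2 ratio of 1.10. The carnitine transporter Slc22a5 was the highest of this list at 39.5 and 39.0 TPM. In the list 1 gene was at least 2-fold higher in replicate 1 (Slc18a2) and 1 in replicate 2, Slc47a1 with 10 and 66 counts. The median was -0.022.

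All 10 enzymes that oxidise, reduce or conjugate aldehydes, alcohols and phenols were detected, and none of their ratios reached 2-fold (median -0.095). The alcohol dehydrogenase Adh1 had 1658 TPM in replicate 1 and 3090 TPM in replicate 2. The aldehyde reductase Akr1a1 had 736 and 778 TPM and the aldose reductase Akr1b3 had 186 and 209 TPM. Among aldehyde dehydrogenases Aldh9a1 was the highest after Aldh2, at 63.1 and 61.95 TPM, while Aldh1a1 had 3.03 and 4.89 TPM. In both libraries Aldh2 exceeded each of these aldehyde dehydrogenases by more than the replicates of either differed.

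Of 5 other amine oxidases 4 were detected, and each of the 4 stood above both monoamine oxidases. The copper amine oxidase Aoc3, known from fat and vessel walls, had 102 TPM in replicate 1 and 68.7 TPM in replicate 2. The spermine oxidase Smox had 37.6 and 28.8 TPM and the polyamine oxidase Paox 22.2 and 23.7 TPM. None of the tested oxidases reached 2-fold (median 0.12). The enzymes of catecholamine synthesis Th, Dbh and Pnmt were above 300 TPM in both libraries, and Ddc had 11.01 and 13.3 TPM. None of these 4 reached 2-fold (median 0.058).

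**Figure D5:**
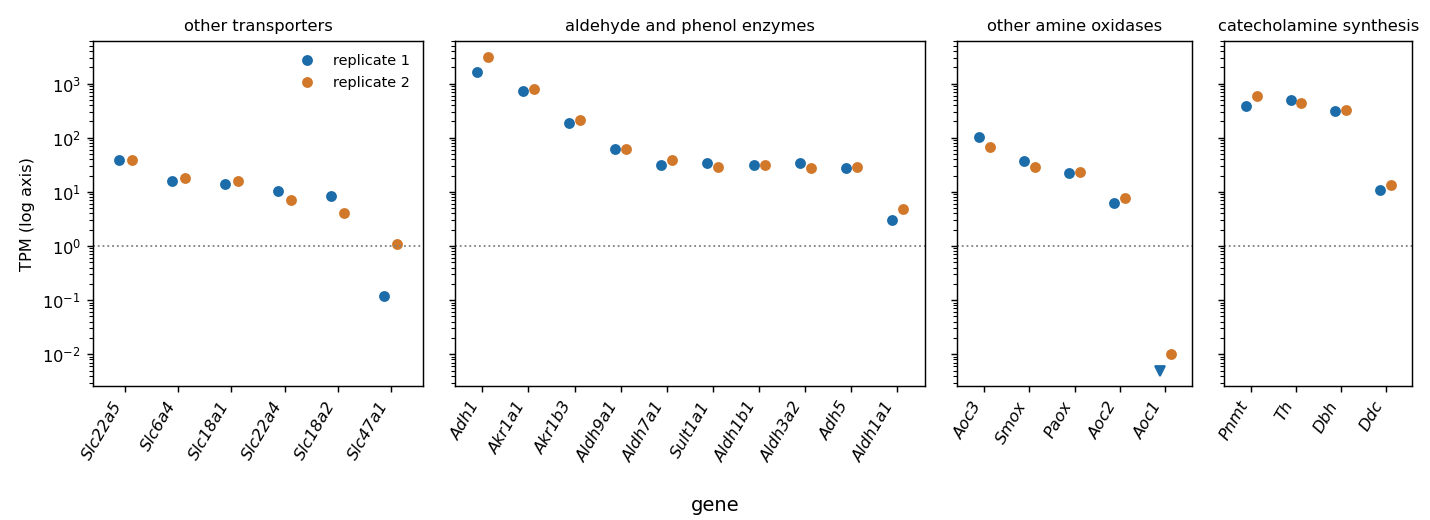
TPM (log axis) in replicate 1 and replicate 2 of the other transporters, the aldehyde and phenol enzymes, the other amine oxidases and the enzymes of catecholamine synthesis; the dotted line is 1 TPM and the triangle marks a gene listed at 0. Adh1, at 1658 and 3090 TPM, is the highest and Aoc1 the lowest.

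The nearest protein-coding neighbours covered a wide range of levels. Maoa and Maob lie tail to tail, 21464 bp apart, and both stood at 1.2 to 2.21 TPM. On the far sides, Cypt1 beside Maoa had 0 counts in both libraries, and Ndp beside Maob had 17 counts in replicate 1 and 0 in replicate 2. Slc22a3 and Slc22a2 follow each other on chromosome 17. Slc22a3 was detected, whereas Slc22a2, 76428 bp away, was not. Plg, the liver gene for plasminogen, overlaps Slc22a3 on the opposite strand and had 3 counts in replicate 1 and 31 in replicate 2, against 1324 and 817 for Slc22a3. Tnrc18, 2171 bp from Slc29a4, had 31.0 and 30.3 TPM, and Wipi2 on its other side had 63.1 and 57.0 TPM. Acad12, 2951 bp from Aldh2, had 9.29 and 9.23 TPM, and Mapkapk5 on the other side had 22.5 and 21.3 TPM. Map3k4, beside Slc22a3, had 3.90 and 3.91 TPM. Slc6a2 lies between Lpcat2, at 2.88 and 1.84 TPM, and Ces1a, which had 0 counts in both libraries. Slc6a3 lies between Lpcat1, at 23.1 and 19.9 TPM, and Clptm1l, at 77.2 and 88.0 TPM.

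The windows before one annotated start each of Slc29a4 and Slc22a3, the highest pair among the 5 uptake transporters, differed in base composition. The RefSeq table for GRCm38.p6 held a start for 5 of the 8 genes. The Slc29a4 window lies inside the gene span given above, since Slc29a4-202, which is not in the deposited tables, starts at 142692512. It ends 1 bp before the start of Slc29a4-201, at 142702101, the transcript to which all counts of the gene were given. The lines give the 250 bases before that start, 5′ to 3′, with the GC box GGGCGG or its complement CCGCCC in capitals. The Slc29a4 window is chr5:142701851-142702100 on the plus strand and the Slc22a3 window chr17:12507705-12507954 on the minus strand.
Slc29a4: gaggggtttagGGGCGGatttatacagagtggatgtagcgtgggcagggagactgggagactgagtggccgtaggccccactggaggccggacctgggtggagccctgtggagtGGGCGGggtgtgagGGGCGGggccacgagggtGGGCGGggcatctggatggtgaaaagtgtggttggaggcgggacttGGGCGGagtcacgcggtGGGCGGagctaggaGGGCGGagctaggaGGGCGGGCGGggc
Slc22a3: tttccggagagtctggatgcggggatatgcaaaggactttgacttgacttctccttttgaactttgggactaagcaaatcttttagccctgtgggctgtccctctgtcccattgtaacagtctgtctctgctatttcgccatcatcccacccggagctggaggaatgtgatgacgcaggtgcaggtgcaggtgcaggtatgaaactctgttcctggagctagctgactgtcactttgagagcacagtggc
The Slc29a4 window held 9 matches, counting overlapping ones on both strands, and 68.8% G and C. The Slc22a3 window held 0 matches and 51.2% G and C, near the median of 52.4% over all 32851 windows. Slc6a3, which was not detected, had 3 matches, Maoa had 1 and Slc22a2, also not detected, had 0. Of all windows of this length 32.7% held at least 1 match. A match describes the letters and no more.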

How the data were processed

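Adrenal glands were profiled in 2 poly(A) RNA libraries, 1 group. Gene and transcript tables derive from transcriptome alignments to mm10 with annotation M4, per the deposited readme files. Neither labels nor headers used here name the aligner or quantifier. Expected counts, as deposited, are estimated read pairs, not normalized. The authors' TPM and FPKM are per length and scaled to all rows, spike-ins included. The deposited TPM bounds have no stated level and need not enclose the TPM: for Aldh2 they were 3412 to 3475 and 5994 to 6070, below its TPM in both libraries, and the percent of a gene's TPM held by each transcript was deposited too. Contig and junction tables in mm9 were not used here.

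Members and lists were chosen with earlier results of these data known. The libraries summed to 48059863 (replicate 1) and 53294872 (replicate 2) expected counts, of which spike-ins took 0.654% and 0.485%. Names and positions came from GENCODE M21 on the same assembly, matching 42462 of 43346 identifiers. Spike-ins were left out of ratios. Counts were scaled by TMM factors of edgeR 4.0.16 in R 4.3.3, computed on rounded counts, with a prior count of 0.5. Ratios needed 20 summed counts, and a gene was called apart at 2-fold. Intervals were exact (Clopper-Pearson, scipy 1.17.1) and cover counting error only. With 1 group of 2 libraries no test was fitted. Ratios and intervals were tried on simulated counts drawn with counting error alone, so the trial does not bear on the spread between the libraries. Named genes were the 8 members, the lists, the nearest protein-coding neighbours and cell markers. The result for 1 further gene is not reported here. Alternatives covered scaling (DESeq2 1.42.0 size factors, totals, spike-ins), filters, prior, posterior means, TPM and leaving out a replicate.

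The posterior SD of the deposited count was 0 for the members, except 0.44 for Slc29a4 and 0.95 for Aldh2 in replicate 1. Sharing of reads between paralogs was thus negligible in the deposited model.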

Additional observations from a re-analysis of the deposited data

How the results depend on the processing

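No paired analysis was possible because the study has 1 group. Of 148 alternative values 129 stayed within the limits set for a change, 15 moved, 3 were weaker and 1 reversed. Part of this tally was fixed in advance, so it does not measure robustness. With 2 libraries, leaving 1 out always shifts a mean by less than its SD, the limit set for levels, shares and Maoa over Maob. Count filters leave a gene's own ratio as it was, and genes with 1 transcript keep their level on the longest transcript. The reversal was the mean log2 ratio of Maoa to Maob, 0.16 in expected counts against -0.68 in TPM, a difference made by transcript length. Without either replicate it was -0.83 and -0.54. The number of the 8 genes at least 2-fold apart was 1, but 0 with spike-in scaling, 0 by TPM + 1, 0 by TPM, 3 with no minimum count and 3 at 1.5-fold. The ratio of Slc6a2 was then 0.89 with spike-ins, 0.76 by TPM + 1 and 0.98 by TPM. Over all genes the number was 1196, but 4234 with no minimum count, 462 with at least 100 summed counts, 364 by TPM + 1 and 3095 at 1.5-fold. With spike-ins it was 1683, of which 19.1% were higher in replicate 1, against 62.1% before. Over the other pathway lists it was 2, but 4 with spike-ins, 1 with at least 100 counts, 0 by TPM + 1 and 5 at 1.5-fold. Apart from transcript length, the causes were not tested. The number of detected genes was 6, or 5 at 2 TPM. Placing all counts on the longest transcript, the TPM ratio without an added 1, and the pathway list alternatives were chosen after seeing the data. Ratios between replicates and the shared leading transcript have no value with a replicate left out. Depth limits Slc6a3 and Slc22a2, with 18 and 12 summed counts.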
